A study of Mus musculus with 9 samples.

Results

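The genes described here build, load and use the primary cilium, the single antenna-like projection that carries Hedgehog signals in vertebrate cells. The list held 50 genes, and its members in the deposited table were the rows, 1 per Affymetrix probe set, whose platform annotation gave exactly 1 gene symbol that was on the list. There were 81 such rows for 47 of the genes, out of 45037 rows tested and 34945 rows with 1 symbol. Arl6, Arl13b and Rpgrip1l had no row of their own, so no array value is given for them, and they enter only the promoter counts. Of the 47 genes, 25 had a single row, 13 had 2 rows, 6 had 3 rows and 3 had 4 rows.

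Mouse colons were profiled whole on 9 arrays, 5 from the mutant group and 4 from the wildtype group, all of mixed C57BL/6 X Balb/c strain. The mutants were Rosa26-CreERT2-Ptch1fl/fl, in which exons 8 and 9 of Ptch1, the receptor that restrains Hedgehog signalling, were to be removed throughout the body by a tamoxifen-activated Cre. The wildtypes were Rosa26-CreERT2-Ptch1+/+, so the controls carried the same Cre and received the same drug. Both groups were given 1 mg tamoxifen into the peritoneum daily for 5 days, and tissue was collected at day 12. The Cre is active wherever the Rosa26 locus is, so the model does not restrict the deletion to colon, to mesenchyme or to epithelium, and the labels do not say how complete it was or whether each array was a separate animal. P-values therefore measure only the spread between these arrays, which may be technical.

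A cilium is assembled by intraflagellar transport, in which trains of IFT-B and IFT-A proteins are pulled outward by kinesin-2 and back by cytoplasmic dynein-2. The BBSome is a coat-like complex that rides these trains and moves membrane receptors out of the cilium, and the transition zone is the gate at the cilium's base that decides what enters. In vertebrates Smoothened moves into the cilium when Patched is lost or bound by ligand, while Gpr161 leaves, and the Gli factors are processed on the way through. In the gut, Hedgehog ligands come from the epithelium and are received by the mesenchyme, where ciliated cells lie.

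What a row name carries in this table limits what can be said of a gene. Over 9010 genes with at least 2 rows, the percentile of the absolute moderated t of the first 2 rows had a rank correlation of 0.252. For the mean level of the same rows it was 0.0301, and their signed t correlated at 0.0134. Genes share arrays and are not independent replicates in these values, so they are descriptions. Rows named for colon epithelium markers had a median level at the 58.4th percentile of all rows, and rows named for genes of other organs (liver, heart, retina, testis and the like) were at 50.8, so levels by row name did not separate colon from other tissue. For this reason strength of difference is reported for each row, as the absolute moderated t of limma and its percentile among all rows (100 being the strongest), and no direction, fold or abundance is given. Each value belongs to the row that carries the gene's name. Whether names and values are aligned row by row in the deposited table could not be settled, so a named value may belong to another gene.

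The promoters of the members are described first, as a property the list did not use, although they were examined after the array rows were fitted. The members were chosen with earlier results known and the X-box letters after the promoter table was seen. The shares below are therefore descriptions and not a check made in advance. RFX transcription factors bind the X-box, an imperfect palindrome found ahead of many cilium genes. The letters searched, on both strands, were the single arm GTTGCC and the core palindrome, in which GTNNCC is followed by NN and GGNNAC (N being any base). A core palindrome can contain the single arm. In the RefSeq promoter windows (build GRCm38.p6, 250 bases before to 50 after each start, 300 in all), 45 members had an entry. The single arm was in 19 of the 45 (42.2%), against 14.6% of 14410 other genes named on the array and 12.5% of all 32851 windows. The core palindrome was in 10 of the 45 (22.2%), against 2.61% and 1.88%. A gene was counted if any of its windows matched, whereas the shares of all windows count each window alone. Counted by gene over all 27025 genes with a window, the shares were 14.1% for the single arm and 2.16% for the core palindrome. The median GC content was 60.0% for members and 58.7% for those other genes.

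The 6 genes that had a row past the threshold in the comparison of mutant with wildtype colons, described next, each had a single arm or a core palindrome. Among members whose rows did not pass 16 of 36 did (44.4%), and among other genes named on the array 15.8%. This overlap was looked for after the rows were known and was not tested. Neither kind of match was in all 6 genes. Ift172, Ift88 and Bbs5 had the single arm without the core palindrome, and Bbs4, Rab23 and Tmem216 the reverse. By row, 3 of 29 passed in members with the single arm and 4 of 43 in members without it. For the core palindrome 4 of 19 passed with it, of which 2 were Bbs4 rows, and 3 of 53 without it. Windows of 30 bases are shown for these 6 genes, followed by 3 members with the strict palindrome (GTTNCC, NN, GGNAAC), which was in 0.451% of all windows. Letters read 5′ to 3′ on the gene's strand, and capitals mark the match.
Ift172: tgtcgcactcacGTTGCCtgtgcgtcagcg
Bbs5: gatgtcgtgacaaagccggcgcGTTGCCtt
Ift88: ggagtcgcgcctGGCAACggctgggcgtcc
Bbs4: ctcagctgGTCGCCCGGGAAACggtcggct
Rab23: tcaccttgGTCTCCTTGGGTACcaaggcct
Tmem216: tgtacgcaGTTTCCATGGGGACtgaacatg
Bbs7: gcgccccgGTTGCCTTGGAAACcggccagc
Mks1: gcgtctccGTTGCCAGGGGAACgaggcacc
Tctn1: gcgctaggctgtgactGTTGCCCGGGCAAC

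In the order shown, these windows lie at chr5:31291097-31291126 (minus strand), chr2:69647191-69647220 (plus), chr14:57424080-57424109 (plus), chr9:59353464-59353493 (minus), chr1:33719776-33719805 (plus), chr19:10555723-10555752 (minus), chr3:36613489-36613518 (minus), chr11:87853183-87853212 (plus) and chr5:122264411-122264440 (minus). The Rab23, Bbs7 and Mks1 matches begin 112, 121 and 24 bases before the annotated start. The others begin at the start (Ift172) or after it. A match is a run of letters and not evidence of binding, and these arrays do not measure RFX factors on chromatin. Strength in the arrays did not follow the single arm, with a median percentile of 52.1 over 29 rows of members that had it and 54.8 over 43 rows of members that lacked it. For the core palindrome these medians were 66.3 over 19 rows and 44.2 over 53 rows. Bbs4 supplied 4 of the 19 rows (70.9 to 99.51) and Rab23 supplied 3 (79.1 to 97.7), so the higher median rests in part on several probe sets of these genes. Bbs7, Mks1 and Tctn1, which have the strict palindrome, had 4 rows between them, of which 0 passed the threshold.

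The comparison of mutant with wildtype colons asks whether transcripts of the cilium machinery differ once Ptch1 has been targeted so as to switch on the pathway that the cilium serves. Cilium genes passed the test in 7 of 81 rows (8.64%), at an adjusted p under 0.05 by limma over all rows, against 4.51% of all rows tested and 5.19% of rows with 1 symbol. These were the rows of the transport proteins Ift172 and Ift88, the BBSome subunits Bbs4 (2 rows) and Bbs5, the small GTPase Rab23 and the transition zone protein Tmem216. Taken whole, the members ranked near the middle. Their median percentile was 53.5, with quartiles of 21.8 and 75.1, against 52.2 for all rows with 1 symbol. At an unadjusted p under 0.05 there were 18 rows (22.2%), close to the 19.1% of all rows and the 21.1% of rows with 1 symbol. With the brightest row of each gene, 4 of 47 member rows passed (8.51%), against 8.09% of all genes. With array weights 8 of 81 did (9.88%), against 7.25% of all rows and 8.22% of rows with 1 symbol. With quantile normalization 4 of 81 did (4.94%), above the 4.46% of all rows and below the 5.15% of rows with 1 symbol. With 1 array left out 2 to 5 did, and with array number as a covariate 0 did. Colons were measured whole, so a difference in the number of cells of a type and one in RNA per cell cannot be told apart.

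**Figure D1:**
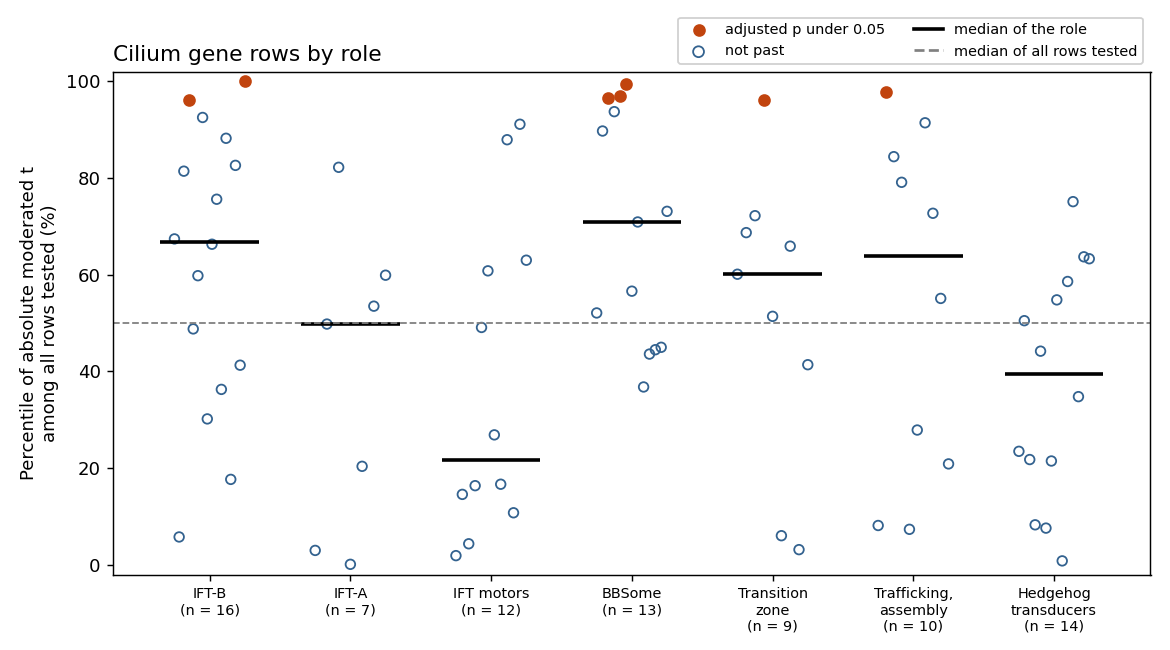
Percentile of the absolute moderated t among all 45037 rows tested (vertical axis, %) for the 81 rows of cilium genes, split by role, with a line at each role's median. Filled points are the 7 rows past an adjusted p of 0.05, and the BBSome (median 70.9) and the Hedgehog transducers (39.5) lie on either side of the dashed median of all rows.

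To show each array without a direction, array values were placed on a scale on which the mean of the wildtype arrays is 0 and the mean of the mutant arrays is 1. Because the means are fixed in this way, what the positions show is spread and overlap. Arrays are listed from replicate 1 upward, and n = 5 mutants and 4 wildtypes throughout. The mutant and wildtype arrays did not overlap in 10 of the 81 member rows (12.3%), against 8.71% of all rows tested.

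Intraflagellar transport was represented by 35 rows of 19 genes, with a median percentile of 49.8. Of these rows 2 passed (5.71%, against 4.51% of all rows tested). Ift172, the largest IFT-B subunit, had the strongest row of any member (row 1423068_at, absolute t 10.5, percentile 99.95, limma adjusted p = 0.00383). Its mutant arrays lay at 0.94, 1.02, 1.13, 1.17 and 0.73 (SD 0.17), and its wildtype arrays at 0.13, 0.09, -0.12 and -0.1 (SD 0.13). The groups stood well apart, with a single mutant array, replicate 5, a little nearer the wildtypes. It passed in each of the 9 fits that left out 1 array, with adjusted p between 0.00372 and 0.0245.

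Ift88, the IFT-B subunit whose loss is widely used to remove cilia, passed close to the threshold (row 1448652_at, absolute t 4.38, percentile 96.2, limma adjusted p = 0.0434). Its mutant arrays lay at 1.43, 0.4, 0.92, 1.05 and 1.21 (SD 0.39), and its wildtype arrays at -0.08, -0.27, -0.16 and 0.52 (SD 0.35). Mutant replicate 2 fell below wildtype replicate 4, so this was the member row that passed while its groups overlapped. It passed in 1 of the 9 fits that left out an array, the one without mutant replicate 2.

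The other IFT-B rows did not pass. The 3 rows of Ift27, a small GTPase of the train that helps the BBSome leave the cilium, lay close together at percentiles of 92.5, 88.2 and 82.6 (limma adjusted p = 0.0861, 0.146 and 0.234). Both of the weaker rows come from probe sets of the type that can bind related transcripts. The Ift46 row had groups that did not overlap at a percentile of 81.4 (adjusted p = 0.253). Ift52, Ift57, Ift74, Ift80, Ift81 and Ift20 had 10 rows in all with percentiles from 5.80 to 75.6.

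IFT-A, the complex that carries cargo back to the base and admits membrane proteins, passed in 0 of 7 rows, against 4.51% of all rows. It had 1 row at an unadjusted p under 0.05 (14.3%), against 19.1% of all rows. Its strongest row was that of Ift122 at a percentile of 82.2 (adjusted p = 0.241), and the other Ift122 row was at 20.4. The single Ift140 row was at 3.02, among the weakest of all. Wdr19 was at 59.9 and 49.8, and Wdr35 at 53.5 and 0.147.

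The motors passed in 0 of 12 rows, against 4.51% of all rows. At an unadjusted p under 0.05 there were 2 motor rows (16.7%), against 19.1% of all rows. The motors had a median percentile of 21.8, below that of the IFT-B rows (66.8) and the IFT-A rows (49.8). Of the 4 rows of Kif3a, a kinesin-2 motor subunit, 1 was at 91.1 with groups that did not overlap (adjusted p = 0.101), and the others were at 49.1, 26.9 and 1.94. Kif3b, its partner, had rows at 63.0, 60.8, 16.7 and 10.8. The kinesin-associated protein Kifap3 was at 16.4 and 4.39. For dynein-2, the light intermediate chain Dync2li1 was at 87.9 (adjusted p = 0.150) and the heavy chain Dync2h1 at 14.6.

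The BBSome and its chaperonin-like assembly factors passed in 3 of 13 rows (23.1%), against 4.51% of all rows tested. Their median percentile was 70.9, the highest of the 5 roles in this fit and in 15 of 18 other settings. With the brightest row per gene trafficking and assembly was higher (65.9 against 58.5), as it was without dim rows (68.6 against 62.9), and without wildtype replicate 4 the transition zone was (61.6 against 58.6). Groups did not overlap in 5 of the 13 rows (38.5%), against 8.71% of all rows tested and 9.78% of rows with 1 symbol. Bbs4 supplied 2 of the 3 rows past the threshold and 3 of those 5, so these counts rest largely on probe sets of a single gene.

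Bbs4, a BBSome subunit that binds centriolar satellites, had 4 rows at percentiles of 99.51, 96.9, 89.7 and 70.9, the first 2 past the threshold (limma adjusted p = 0.0127 and 0.0378). In the strongest, row 1449734_s_at, the absolute t was 6.87, mutant arrays lay at 0.66, 1.06, 0.92, 1.11 and 1.26 (SD 0.23) and wildtype arrays at 0.19, 0, 0.1 and -0.29 (SD 0.21). The groups did not overlap, and the row passed in all 9 fits that left out 1 array (adjusted p 0.0111 to 0.0467). Its _s_at ending marks a probe set whose probes can match several transcripts. In row 1455823_at (absolute t 4.60) the mutant arrays lay at 1.1, 0.78, 1.07, 0.71 and 1.33 and the wildtype arrays at 0.14, 0.52, -0.36 and -0.3. Here the gap between the groups was narrow, between wildtype replicate 2 and mutant replicate 4, and 3 of the 9 such fits kept the call.

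Bbs5, a subunit that binds membrane lipids, passed in its single row, 1429762_a_at (absolute t 4.52, percentile 96.6, limma adjusted p = 0.0395). The mutant arrays lay at 0.96, 0.97, 1.23, 1.2 and 0.65 (SD 0.23) and the wildtype arrays at -0.01, 0.12, -0.02 and -0.1 (SD 0.09). The groups were clearly apart on this scale, and yet only the fit without mutant replicate 5 among the 9 kept the call. The call also depended on processing, with a limma adjusted p of 0.0141 with pseudocount 64 and 0.16 with pseudocount 1. With quantile normalization it was 0.149, with trend and robust eBayes 0.0906 and without dim rows 0.0793. Over 19 other settings the Bbs5 row passed in 5. Bbs2, another core subunit, was the row just outside the threshold (percentile 93.7, adjusted p = 0.0705), with groups that did not overlap. It passed with array weights and without wildtype replicate 1. The rows of Bbs1, Bbs7 and Bbs9 lay between 44.5 and 56.6, and the chaperonin-like Bbs10 and Bbs12 between 36.8 and 73.1.

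**Figure D2:**
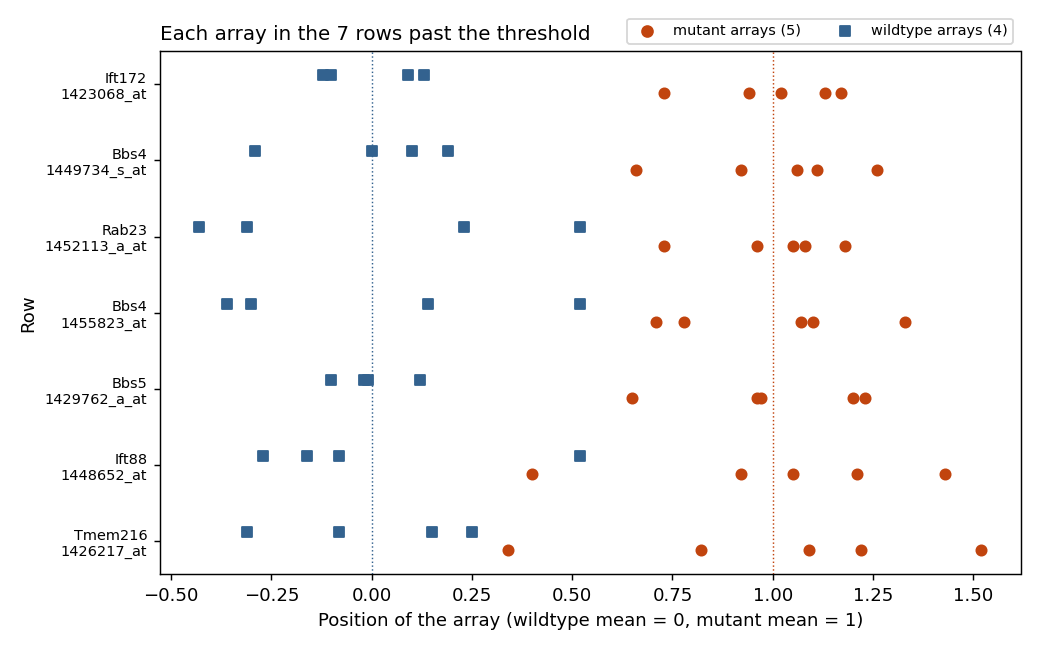
Position of each array (horizontal axis, wildtype mean at 0 and mutant mean at 1, no unit) in the 7 rows past the threshold, with mutant arrays as circles and wildtype arrays as squares. Groups are apart in 6 rows, and in the Ift88 row a mutant array at 0.4 lies below a wildtype array at 0.52.

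Transition zone genes passed in 1 of 9 rows (11.1%, against 4.51% of all rows tested), with a median percentile of 60.1. The row was that of Tmem216, a tetraspan membrane protein of the gate, and was the one just inside the threshold (row 1426217_at, absolute t 4.35, percentile 96.1, limma adjusted p = 0.0444). Its mutant arrays lay at 1.22, 1.09, 1.52, 0.34 and 0.82 (SD 0.45), and its wildtype arrays at -0.08, 0.15, 0.25 and -0.31 (SD 0.25). Mutant replicate 4 was close to the wildtypes, and the call was kept in 1 of the 9 fits, the one without that array. The other Tmem216 row was at 60.1.

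The remaining transition zone members each had a single row that did not pass. Tctn2 was at a percentile of 72.2 and its partner Tctn1 at 41.4. The membrane receptor-like Tmem67 was at 68.7, the scaffold Cc2d2a at 65.9 and the B9-domain protein Mks1 at 51.4. Cep290, which bridges microtubules and membrane, was at 6.06, and B9d1 at 3.18.

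Ciliary trafficking and assembly factors passed in 1 of 10 rows (10.0%, against 4.51% of all rows tested), with a median percentile of 63.9. Rab23 is a small GTPase and a negative regulator of Hedgehog signalling in the mouse embryo. Its 3 rows were at 97.7, 84.4 and 79.1, and the first passed (row 1452113_a_at, absolute t 5.00, limma adjusted p = 0.0294). The mutant arrays of that row lay at 0.73, 1.18, 1.05, 0.96 and 1.08 (SD 0.17) and the wildtype arrays at 0.52, -0.31, -0.43 and 0.23 (SD 0.45). The wildtypes were the more scattered group, replicate 1 lying nearest the mutants. Without that array the adjusted p was 0.0109, and 3 of the 9 fits kept the call.

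Ofd1, a centriole protein needed to build the cilium, was at 91.4 (adjusted p = 0.0983) and Arl3, a GTPase that releases lipid-modified cargo inside the cilium, at 72.7. Fuz, a planar polarity effector that helps assemble transport trains, was at 55.1 and 27.9. Tulp3, the adaptor that brings Gpr161 and other receptors into the cilium, had 3 rows that were all weak, at 20.9, 8.17 and 7.38.

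The genes grouped here as Hedgehog transducers passed in 0 of 14 rows, against 4.51% of all rows tested. At an unadjusted p under 0.05 there were 0 of these rows, against 19.1% of all rows. Their median percentile of 39.5 was below that of all rows. Smoothened, the receptor that Patched holds off, had rows at 63.3, 44.2 and 0.855 (limma adjusted p = 0.531, 0.740 and 0.997). Sufu, which holds the Gli factors back, had rows at 63.7, 8.31 and 7.63. Gpr161, a receptor that keeps protein kinase A active at the cilium, was at 50.5 and 21.8, and the kinesin Kif7, which organises the cilium tip, at 23.5. Evc and Evc2, which relay the signal from Smoothened at the cilium base, were at 75.1 and 34.8 for Evc and 54.8 for Evc2. The kinase Stk36, placed in this group without evidence from these data that it transduces the signal, was at 58.6 and 21.5. In the strongest of these rows, that of Evc, mutant arrays lay between -0.42 and 1.89 and wildtype arrays between -0.46 and 0.89, so the groups overlapped widely.

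Rows of a single gene often disagreed in strength. Over the 22 members with at least 2 rows, the median span between a gene's weakest and strongest row was 32.8 percentile points, and over all 9010 genes with at least 2 rows it was 35.6. The first 2 rows had a rank correlation of 0.289 in members (n = 22 genes). Ift27, Rab23 and Bbs4 had all of their rows above a percentile of 70, while Tulp3 and Kifap3 had all of theirs below 21. Kif3a spanned from 1.94 to 91.1. Of the 3 members with 2 or more rows of which any passed, 1 had a second row past the threshold, which was Bbs4.

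**Figure D3:**
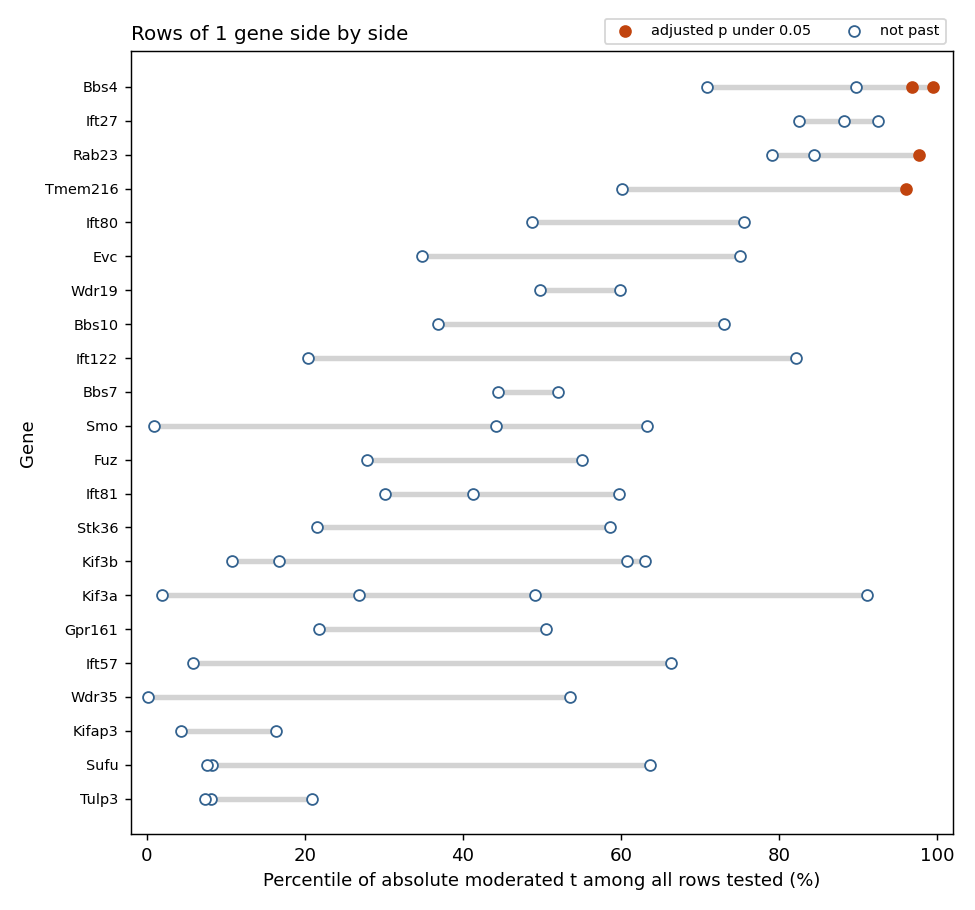
Percentile of the absolute moderated t (horizontal axis, %) of every row of the 22 members with 2 or more rows, ordered by the gene's median, with grey bars from the weakest to the strongest row. Filled points passed the threshold; Tulp3 rows sit together at 7.38 to 20.9, and Kif3a rows spread from 1.94 to 91.1.

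The lead counts depended on single arrays. Member rows past the threshold numbered 2 without wildtype replicate 3 or 4 or mutant replicate 3, 3 without wildtype replicate 2 or mutant replicates 1, 2 or 5, and 5 without wildtype replicate 1 or mutant replicate 4. The shares of all rows moved as well. Without mutant replicates 1 to 5 they were 3.05%, 1.55%, 1.52%, 4.64% and 3.37%, in that order. Without wildtype replicates 1 to 4 they were 5.72%, 2.48%, 0.855% and 0.875%. The member shares were 2.47% for 2 rows, 3.7% for 3 and 6.17% for 5. The share of rows with 1 symbol was above that of members without mutant replicate 5 (3.89%) and without wildtype replicate 1 (6.51%). In the other fits with an array left out it was below. Ift172 and the strongest Bbs4 row passed in all 9 fits, and no other member row did. The BBSome count was 1 to 3 over these fits and the transport count 1 to 2. The Hedgehog transducers stayed at 0.

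The titles number the arrays, and mutants held the lower numbers (mean 4.2, against 8 for wildtypes). With array number as a covariate 0 of 81 member rows passed by limma (smallest adjusted p 0.0730, for Ift172), against 30 of 45037 rows (0.0666%), and 14 member rows (17.3%) were at an unadjusted p under 0.05 against 13.2% of all rows. Ift172 kept a percentile of 99.88 in that fit. Without the covariate Ift57 was at 66.3 in its stronger row, and with it that row was at 98.2 (adjusted p = 0.154). The part of array number in these results cannot be fully told apart from genotype.

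**Figure D4:**
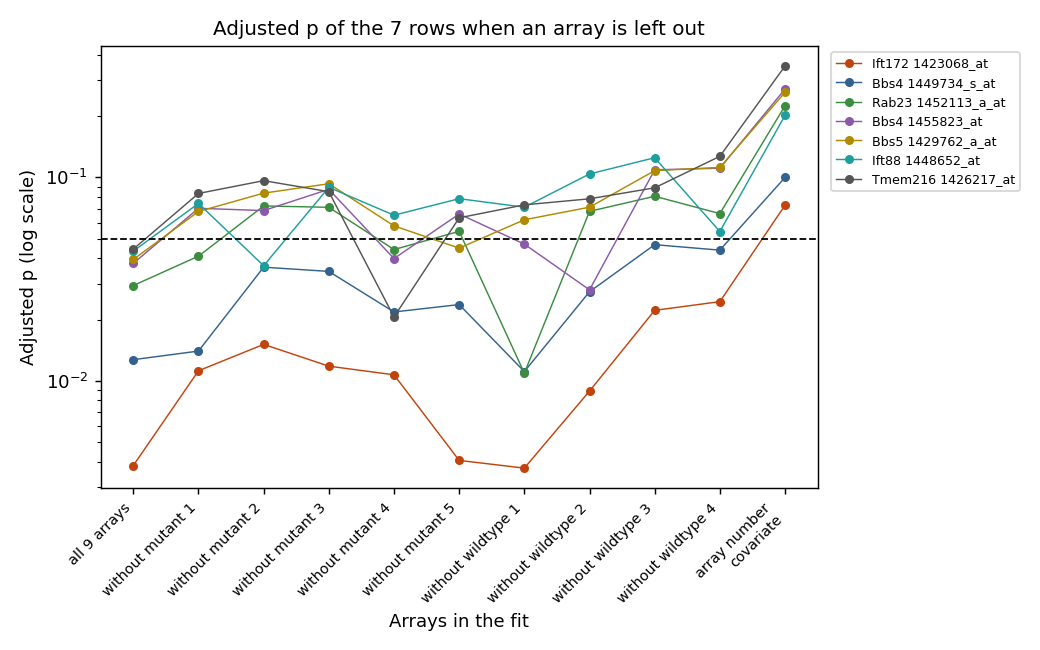
Adjusted p of limma (vertical axis, log scale, dashed line at 0.05) for the 7 rows with all 9 arrays, with each array left out, and with array number as a covariate; lines only join the values of a row. Ift172 and Bbs4 (1449734_s_at) stay under the line in all 9 fits with an array left out, and all 7 rows lie above it with the covariate.

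Other genes of the cilium and of the pathway were read from lists of their own. For comparison, 4.51% of all rows tested passed, and 19.1% were at an unadjusted p under 0.05. Further transport genes passed in 0 of 18 rows (13 genes, 3 rows at an unadjusted p under 0.05, median percentile 54.9) and further BBSome and adaptor genes in 0 of 20 (9 genes, 5 rows, 55.2). Further transition zone and basal body genes passed in 3 of 58 rows of 23 genes (5.17%, median percentile 54.1). These were Ccp110, which caps the mother centriole and blocks cilium growth (limma adjusted p = 0.0293), Cep83, a distal appendage protein that docks the centriole (0.0207), and Ttbk2, the kinase that removes the cap (0.0465). Motile cilium genes, which mark multiciliated cells, passed in 2 of 31 rows (6.45%, against 5.19% of rows with 1 symbol). Both rows were of the axonemal dynein gene Dnaic1. The motile list had 3 rows (9.68%) at an unadjusted p under 0.05 and a median percentile of 38.2. RFX and other ciliary transcription factors passed in 0 of 12 rows (0 at an unadjusted p under 0.05).

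Hedgehog pathway genes outside the list passed in 4 of 52 rows of 20 genes (7.69%). The share was 4.51% over all rows tested and 5.19% over rows with 1 symbol. At an unadjusted p under 0.05 there were 9 rows (17.3%, against 19.1% of all rows), and the median percentile was 41.5. All 4 rows past the threshold were rows of Hhip, a decoy receptor transcribed in answer to the signal, between 99.55 and 99.66. The rows of the targeted gene, Ptch1, were at 93.3, 92.2 and 32.3 (limma adjusted p = 0.0761, 0.0894 and 0.834). Where its probe sets lie relative to the deleted exons is not given in the sources used here, so they check nothing about the deletion. Gli1, a direct target, was at 87.6, Gli2 at 70.1 and 40.9, and Gli3 at 66.1, 58.1 and 42.1.

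Cell type markers were listed beside the members. Rows of colon epithelium markers passed in 4 of 20 (20.0%, median percentile 79.3), against 4.51% of all rows tested. These 4 rows came from 2 of the 13 marker genes. Smooth muscle rows passed in 0 of 14 (61.5), fibroblast rows in 1 of 16 (57.5) and endothelium rows in 0 of 5 (32.2). The list of genes of other organs had 0 of 22 rows past the threshold (54.0). Rows of enteric neurons and glia passed in 0 of 11 (70.6) and those of immune cells in 0 of 8 (54.2). The part of cell composition in the cilium rows was not tested.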

How the data were processed

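The authors deposited 1 linear intensity per probe set and array. The submitters' processing notes name Affymetrix Expression Console 1.1, and the method of summary is not given in the sources used here. Array medians lay between 53.8 and 54.7, so no further normalization was applied. Per the labels' protocols 100 ng RNA was labelled per array.

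Of 45101 rows, 64 controls were left out. The platform annotation gave 1 symbol to 34945 of the rows tested, several to 932 and none to 9160. Values were fitted as log2(intensity + 16) in R 4.3.3 with lmFit and eBayes of limma 3.58.1 (two-sided, 7 residual and 2.26 prior degrees of freedom) over all 45037 rows, with Benjamini-Hochberg adjustment over them and a threshold of 0.05. The fit was tested on simulated data with independent normal errors. The simulation held no effect of array number, so it does not bear on that part of the results. Percentiles rank the absolute moderated t among all rows tested.

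Rows named are those past the threshold, the 3 strongest of each role, every member with 3 or more rows and the rows on either side of the threshold; other members are given by value for completeness. The members, roles and lists were chosen with earlier results of these data known, and the X-box letters after the promoter table was seen. No set test was run. Alternatives were pseudocounts of 1 and 64, a filter on dim rows, 1 row per gene, a trended robust eBayes, quantile normalization, array weights, median centring, array number as a covariate, a threshold of 0.01 and leaving out each array. The number of arrays limits the precision.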

Additional observations from a re-analysis of the deposited data

Results flagged for a closer look

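A single array stood apart in 1 of the 30 groups of arrays checked (15 rows, 2 genotypes each), where chance gives about 1 in 20. In the Smo row at a percentile of 63.3, mutant replicate 1 lay at 0.05 on the position scale, while the other mutants lay between 1.06 and 1.43. Its gap to the nearest mutant was 0.732 of the group's range, above Dixon's 95% value of 0.71 for 5 samples. The wildtype arrays of this row ranged from -2.08 to 2.15, and the row did not pass in any of 18 other settings.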

How the results depend on the processing

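No paired analysis was possible because the labels give the groups no shared replicate numbers. With all 9 arrays 2029 rows passed. The count was 30 with array number as a covariate, 3267 with array weights, 97 at a threshold of 0.01, and 385 to 2577 with 1 array left out. Member rows numbered 0 with the covariate (genes 0), 4 with quantile normalization (genes 3), 4 with the brightest row per gene and 1 at 0.01 (genes 1), and 2 to 5 (genes 2 to 4) with 1 array left out. By role, the covariate left 0 for every role. At 0.01 transport kept 1 and the others 0. Transport had 1 with pseudocount 64 or quantile normalization, and 1 to 2 with an array left out. The BBSome had 1 with trend and robust eBayes and 1 to 3 with an array left out. The transition zone had 0 with the brightest row, pseudocount 64 or quantile normalization, and 0 to 1 with an array left out. Trafficking and assembly had 0 with the brightest row, and 0 to 1 with an array left out. The causes were not tested.

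The median percentile over member rows was 49.0 with array weights and 48.8 to 57.3 with an array left out. For the BBSome it was 58.5 with the brightest row, 60.9 with trend and robust, 63.0 with pseudocount 1, 62.9 without dim rows and 58.6 to 84.0 with an array left out. For the transition zone it was 48.8, 52.6, 55.0 and 54.1 in the same 4 settings and 48.8 to 61.6. For transport it was 44.5 with array weights and 44.5 to 57.3, for trafficking and assembly 50.7 to 66.0, and for Hedgehog transducers 31.2 to 47.6. Over 19 other settings the Ift172 row passed in 18, the strongest Bbs4 row in 17, the Ift88 row in 7 and the Bbs5 row in 5. Over 18 the Rab23 row passed in 10, the second Bbs4 row in 9 and the Tmem216 row in 6.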
